A study of Mus musculus with 9 samples.

Results

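A set of 10 miRBase entries of atypical origin were followed in the tibialis anterior muscle of mice bearing Lewis lung carcinoma (LLC) tumours and of control mice. Of these, 9 (mmu-miR-1839-5p and -3p, mmu-miR-1843a-5p and -3p, mmu-miR-1843b-5p, mmu-miR-3068-5p and -3p, mmu-miR-664-3p and mmu-miR-3535) come from hairpins that overlap annotated small nucleolar RNA (snoRNA) or small Cajal body RNA (scaRNA) genes, and the other, mmu-miR-6240, is an entry with no arm in its name. The 10 were chosen by name and annotation out of 1915 entries in the count tables, with earlier results of these data known. The tests below therefore describe them and are not independent evidence. They were also selected on being expressed: all 10 are among the 304 entries that exceeded 32 counts in 1 library or more. The entries nearest to that limit were miR-3068-5p inside it, with at most 56 counts in a library, and miR-3084-3p outside it, with at most 32. miR-1843a-3p and miR-3535 exceeded the limit in LLC libraries only, with at most 31 and 29 counts in a control library. The 9 are every expressed entry found over a snoRNA or scaRNA gene in the annotation used. Entries whose hairpin had no arm among the RefSeq sequences could not be searched. miR-1843a-3p and miR-3535 also stand on a list that the study drew from these same libraries, so their direction here is not independent evidence.

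The control group held 4 mice injected with PBS (C1 to C4) and the LLC group 5 mice (L1, L2, L3, L5 and L6) injected with 750000 LLC cells in each flank. The sample annotation gives day 0 for all control and day 22 for all LLC libraries, so group and annotated day cannot be told apart. The study's own text states that mice of both groups were examined 22 days after the inoculation. LLC is a mouse lung carcinoma line used to model cancer cachexia, the wasting of muscle and fat that accompanies tumours. The sample labels give C57BL/6J mice of 10 weeks, while the series' own design text gives C57BL/10 males of 8 weeks, and neither names a transgene in either group. Libraries were made from whole muscle, so fewer cells of a type and less RNA per cell cannot be told apart.

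snoRNAs and scaRNAs guide the chemical modification of ribosomal and spliceosomal RNAs. H/ACA-type RNAs fold into hairpins followed by an ACA near the 3′ end and guide pseudouridylation, whereas C/D-type RNAs carry C and D boxes and guide 2′-O-methylation. Fragments of both kinds can be cut by Dicer or other nucleases to the size of a miRNA, and some were entered in miRBase as miRNAs. A count on such an entry can therefore be a processed miRNA, a fragment of the parent RNA, or both, and small RNA counts alone do not separate them.

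The mature sequences of the entries are shown because their lengths and overlaps decide which reads can be counted on them. Of the 10, 9 had a RefSeq sequence (GRCm38.p6), and miR-1839-3p had none in that table. Capitals mark the seed, bases 2 to 8, counted from the 5′ end.
mmu-miR-1839-5p: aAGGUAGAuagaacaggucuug
mmu-miR-1843a-3p: uCUGAUCGuucaccuccauaca
mmu-miR-1843a-5p: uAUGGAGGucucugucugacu
mmu-miR-1843b-5p: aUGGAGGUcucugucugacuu
mmu-miR-3068-3p: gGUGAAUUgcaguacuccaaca
mmu-miR-3068-5p: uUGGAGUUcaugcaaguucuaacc
mmu-miR-664-3p: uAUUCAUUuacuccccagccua
mmu-miR-3535: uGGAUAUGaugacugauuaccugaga
mmu-miR-6240: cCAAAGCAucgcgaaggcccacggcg

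No seed was shared among the 9. Only that of miR-6240 was found in another mouse entry, miR-330-3p. miR-3535 and miR-6240 were 26 bases long and miR-3068-5p 24, while the median of the 270 expressed entries with a sequence was 22 bases. Of these 270, 14 had 24 bases or more and 3 had 26, which was the longest length. The GC content of miR-6240 was 69.2%, against a median of 47.6% over the 270.

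miR-1843a-5p and miR-1843b-5p shared a run of 20 bases, which starts at base 2 of the first and base 1 of the second, so their seeds are offset by 1 base. The whole sequence of miR-1843b-5p also occurred within the Mir1843a hairpin and Scarna3b, so its reads cannot be assigned to a locus. The parent RNAs below are shown with the mature sequences in capitals, since the position of an entry in its parent differs between them (GENCODE transcripts, GRCm38).
Scarna3b (scaRNA, chr12:80391613-80391751, minus strand): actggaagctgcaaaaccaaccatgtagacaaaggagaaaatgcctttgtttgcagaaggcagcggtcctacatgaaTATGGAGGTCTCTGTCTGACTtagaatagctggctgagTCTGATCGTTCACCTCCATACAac
Scarna3a (scaRNA, chr1:159340283-159340422, plus strand): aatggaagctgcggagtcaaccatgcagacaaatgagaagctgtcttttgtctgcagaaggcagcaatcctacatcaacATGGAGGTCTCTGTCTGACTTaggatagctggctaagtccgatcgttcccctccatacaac
snoRNA of Mir3068 (chr12:87437682-87437817, minus strand): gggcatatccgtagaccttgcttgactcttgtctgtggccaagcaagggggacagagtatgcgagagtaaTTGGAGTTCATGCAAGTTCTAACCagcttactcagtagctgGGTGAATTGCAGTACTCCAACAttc
Gm24148 (snoRNA, chr1:86352008-86352087, minus strand): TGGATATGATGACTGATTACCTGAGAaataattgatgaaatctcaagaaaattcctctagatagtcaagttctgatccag
Mir6240 hairpin (chr5:114851948-114852064, plus strand): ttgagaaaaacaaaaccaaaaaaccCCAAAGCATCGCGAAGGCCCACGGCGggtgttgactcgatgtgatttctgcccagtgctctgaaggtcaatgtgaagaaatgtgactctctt

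The loci were spread over the genome, mostly in introns (GRCm38). The hairpin of miR-1839 lay at chr7:81529916-81529988 in an exon of the lincRNA gene 2900076A07Rik. The hairpin of miR-1843a (chr12:80391613-80391677) lay in an intron of Dcaf5, which encodes a substrate receptor of CUL4 ubiquitin ligases, and that of miR-1843b (chr1:159340358-159340423) in an intron of Cop1, a ubiquitin ligase gene. The miR-3068 hairpin (chr12:87437679-87437757) lay in an intron of Alkbh1, a demethylase gene, and that of miR-664 (chr1:185242975-185243043) in an intron of Rab3gap2. miR-3535 (chr1:86351981-86352127) lay in Ncl, the nucleolin gene, with the hairpin reaching into an exon. For miR-6240 (chr5:114851948-114852064) no host gene was annotated, and no transcript of the annotation other than its own hairpin held the mature sequence. The ribosomal RNA precursor was not analysed here.

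The parents differed in the letters at their ends. All 5 parents other than Gm24148 held ACA in their last 8 bases, which 47.6% of 1558 snoRNA and scaRNA transcripts and 16.7% of 2202 miRNA hairpin transcripts did. Gm24148, the parent of miR-3535, held TGATGA in its first 15 bases and CTGA in its last 15, as C/D-type RNAs do. That pair occurred in 19.2% of the snoRNA and scaRNA transcripts and in 0 of the 2202 hairpin transcripts. Only the transcript strand was searched, and a match describes letters, not a working box. The 5p entries of the ACA-bearing parents began at bases 65 to 80 and the 3p entries ended 2 to 5 bases before the 3′ end, whereas miR-3535 was the first 26 of 80 bases.

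**Figure D1:**
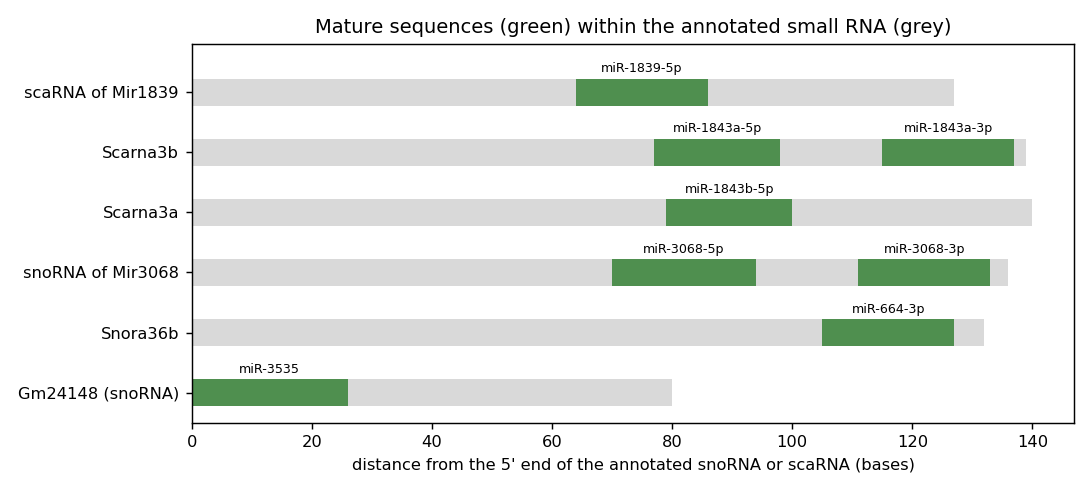
Position of each mature sequence (green) in its annotated snoRNA or scaRNA (grey), in bases from the 5′ end. The 5p and 3p entries of the ACA-bearing parents sit in the 3′ part, and miR-3535 covers bases 1 to 26 of 80. miR-1839-3p has no sequence in the table and miR-6240 no annotated snoRNA or scaRNA parent, so neither is drawn.

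The entries were scarce. Total counts ranged from 4992339 to 6548379 in the control libraries and from 6216566 to 7833161 in the LLC libraries, of which the 10 entries together took 1252 to 2244 counts, or 0.0196% to 0.0296%. In control muscle the share was 0.0226% to 0.0296%, in LLC muscle 0.0196% to 0.0286%, with L5 lowest. L5 stood apart in other ways: the 5 most abundant miRNAs took 68.5% of its counts, against 53.9% to 61.0% in the others, and its TMM factor, which corrects for such composition, was 0.762 against 0.876 or more. Of the 5 skeletal muscle markers, 4 passed the filter, but at very different levels. miR-133a-3p had 89338 to 186111 counts and miR-133b-3p 20160 to 41678, against only 62 to 171 for miR-1a-3p and 18 to 49 for miR-499-5p. The reason for this spread was not tested. The remaining marker, miR-206-3p, a miRNA of slow and regenerating fibres, had 0 to 3. The liver miRNA miR-122-5p had 0 to 1 counts and the neuronal miR-124-3p 0 to 4. Median CPM before TMM was 171 in control and 109 in LLC muscle for the red cell miRNA miR-451a, and 23.0 and 39.2 for the myeloid miR-223-3p. The median of the other red cell miRNA, miR-144-3p, was also lower in LLC muscle, and the labels name no batch. Their part in the results below was not tested.

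In the comparison of LLC with control muscle, miR-6240 had lower levels in the LLC group, miR-1843a-3p and miR-3535 had higher ones, and the other 7 entries differed by less. No entry passed the adjusted threshold in edgeR. In that test 0 of the 10 entries and 0 of all 304 expressed entries were called (0.0%), where a call needs an adjusted p no higher than 0.05 together with a fold change no lower than 1.5, and limma with voom also called 0. At an unadjusted p of at most 0.05, 50 of the 304 passed, 3 of them among the 10. With a fold change of at least 1.5 required as well, 22 of 304 (7.24%) passed, and 3 of the 10. Of these 3, miR-1843a-3p and miR-3535 had entered the 304 only through LLC libraries. DESeq2 called 7 of 304 (2.3%), among them miR-1843a-3p and miR-6240, and edgeR without the filter on low counts called 22 of 932 (2.36%), among them miR-1843a-3p, miR-3535 and miR-6240.

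miR-6240 was the only 1 of the 10 entries whose groups did not overlap. Its level was 19.8, 19.9, 14.7 and 21.3 CPM in C1 to C4 and 12.0, 11.6, 9.30, 5.72 and 13.0 CPM in L1, L2, L3, L5 and L6. Every LLC library thus lay under the lowest control library, C3. Such a gap, in either direction, was found for 18 of the 304 expressed entries (5.92%). The mean was 18.9 ± 2.90 CPM (SD, n = 4) in control muscle and 10.3 ± 2.89 CPM (SD, n = 5) with LLC tumours. This is a log2 fold change of -0.86 (SE 0.212), with an adjusted p of 0.0812 in edgeR, which no other of the 304 went below. An exact permutation test gave p = 0.00794, the smallest that 4 against 5 libraries allow. Since miR-6240 was chosen with earlier results of these data known, these values are a description. Without L5, the lowest library, the log2 fold change was -0.72 and the adjusted p in edgeR was 0.118. Over all alternatives it stayed between -0.996 and -0.71, while the adjusted p ranged from 0.00275 with no filter to 0.721 with a replicate block. Counts behind these levels were 83 to 150 in the control and 29 to 113 in the LLC libraries. The red cell miRNA named above also had its lower median in LLC muscle, and its part in this difference was not tested.

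miR-1843a-3p, from the 3′ arm of the Scarna3b hairpin, had the largest fold change of the 10 with all libraries. Its level was 4.20, 3.31, 3.01 and 2.37 CPM in C1 to C4 and 6.42, 4.72, 3.72, 14.2 and 7.68 CPM in L1, L2, L3, L5 and L6. All LLC libraries except L3 exceeded all control libraries, and L5 was far above the others. The means were 3.22 ± 0.759 CPM (SD, n = 4) and 7.35 ± 4.13 CPM (SD, n = 5). The log2 fold change was 1.14 (SE 0.357, edgeR adjusted p = 0.166, range over the alternatives 0.000944 to 0.721), and an exact permutation test gave p = 0.0397. Without L5 the log2 fold change was 0.79 (edgeR adjusted p = 0.304), and without L3 it was 1.33 (edgeR adjusted p = 0.0439). On the libraries numbered 1 to 3 alone it was 0.48, and 0.50 with a replicate block, below the 0.82 of miR-3535 in both fits (edgeR adjusted p for miR-1843a-3p 0.539 and 0.721). These values rested on 12 to 31 counts per control library and 28 to 72 per LLC library. Only LLC libraries took miR-1843a-3p over the expression limit, so its selection also depended on the levels tested, and its p-values are a description.

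miR-3535, whose sequence lies at the 5′ end of the annotated snoRNA Gm24148, showed a similar arrangement. Its level was 3.79, 3.44, 5.14 and 4.74 CPM in C1 to C4 and 7.94, 7.33, 6.24, 12.6 and 4.13 CPM in L1, L2, L3, L5 and L6. Here L6 lay within the control range and the other 4 LLC libraries lay above it. The means were 4.28 ± 0.792 CPM (SD, n = 4) and 7.65 ± 3.14 CPM (SD, n = 5). The log2 fold change was 0.82 (SE 0.295, edgeR adjusted p = 0.214, range over the alternatives 0.0226 to 0.721), with p = 0.0476 in an exact permutation test. Without L5 it was 0.58, just under a fold change of 1.5 (edgeR adjusted p = 0.393), so that 2 rather than 3 of the 10 entries passed the unadjusted threshold. Without L1 and L5 together it was 0.49. These values rested on 24 to 29 counts per control library and 36 to 64 per LLC library. Only LLC libraries took miR-3535 over the expression limit, so its selection depended on the LLC levels then tested. Its fold change and p-values therefore describe the libraries and are not independent evidence.

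**Figure D2:**
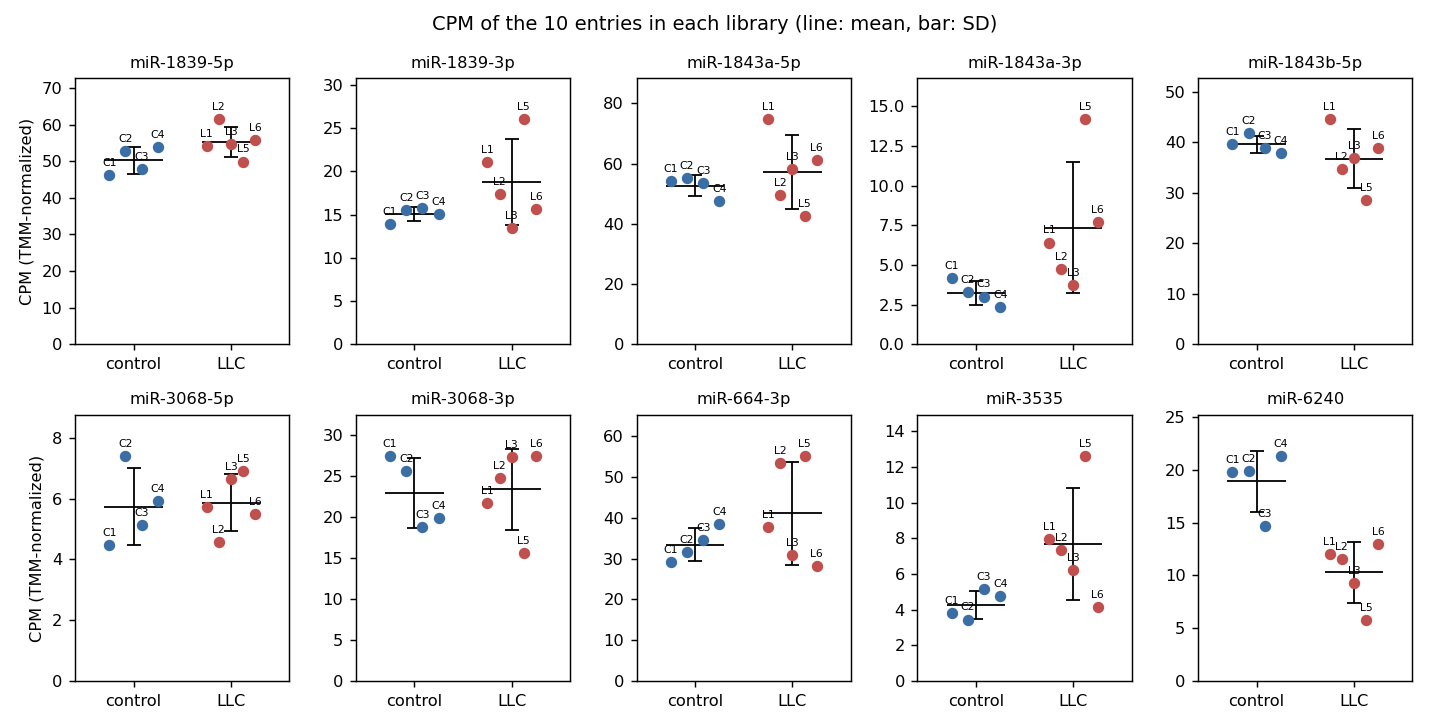
Level of each entry in TMM-normalized CPM (vertical axes from 0) in the 4 control (blue) and 5 LLC (red) libraries, with the group mean (line) and SD (bar). The 5 LLC libraries sit below the 4 control libraries for miR-6240 only, and L5 is the highest library for miR-1839-3p, miR-1843a-3p, miR-664-3p and miR-3535.

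The remaining 7 entries overlapped between the groups. miR-1839-5p, from the scaRNA of Mir1839, ranged from 46.2 to 53.9 CPM in the control and from 49.9 to 61.6 CPM in the LLC libraries, a log2 fold change of 0.14 (edgeR adjusted p = 0.536), with 4 of the 5 LLC libraries above all controls. Its partner miR-1839-3p was at 13.9 to 15.8 CPM in the control and 13.4 to 26.1 CPM in the LLC libraries (log2 fold change 0.30, edgeR adjusted p = 0.383). miR-664-3p, from Snora36b, was at 29.1 to 38.5 CPM in the control and 28.2 to 55.3 CPM in the LLC libraries (0.30, edgeR adjusted p = 0.417). For both, the spread was wider in the LLC group, where L5 was highest. The 5′ arm of miR-1843a was at 47.6 to 55.2 CPM in the control and 42.6 to 74.8 CPM in the LLC libraries (0.12, edgeR adjusted p = 0.666), and miR-1843b-5p at 37.9 to 41.7 and 28.6 to 44.6 CPM (-0.10, edgeR adjusted p = 0.680). L1 was highest and L5 lowest for both of these. The arms of miR-3068 hardly differed: miR-3068-3p had means of 23.0 ± 4.27 (SD, n = 4) and 23.4 ± 4.95 CPM (SD, n = 5), and miR-3068-5p 5.74 ± 1.27 (SD, n = 4) and 5.87 ± 0.941 CPM (SD, n = 5). Their fold changes were both 0.03 on the log2 scale (edgeR adjusted p = 0.948 for the 3p and 0.954 for the 5p arm).

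As a list, 8 of the 10 entries had higher and 2 lower fitted values in LLC muscle, and their median difference was 0.13 on the log2 scale. Among the 8 were miR-1843a-3p and miR-3535, which entered the 304 only through LLC libraries, so their direction was favoured by the selection. Over all 304 expressed entries 141 were higher and 163 lower, with a median of -0.02. The direction of the small changes depended on scaling: with library totals alone, which moved the median of all entries by -0.14, 4 of the 10 were higher and 6 lower. Leaving out L3 or C3 gave 6 higher and 4 lower. The other 5 expressed entries with no arm in the name, the naming class of miR-3535 and miR-6240, were miR-30f, miR-378b, miR-378c, miR-451a and miR-484. All 5 had lower fitted values in LLC muscle, with a median of -0.12 (log2), and none was called (smallest edgeR adjusted p = 0.100, for miR-451a). The median coefficient of variation of the 10 was 13.7% among control and 23.96% among LLC libraries, against 13.8% and 18.4% over all 304.

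**Figure D3:**
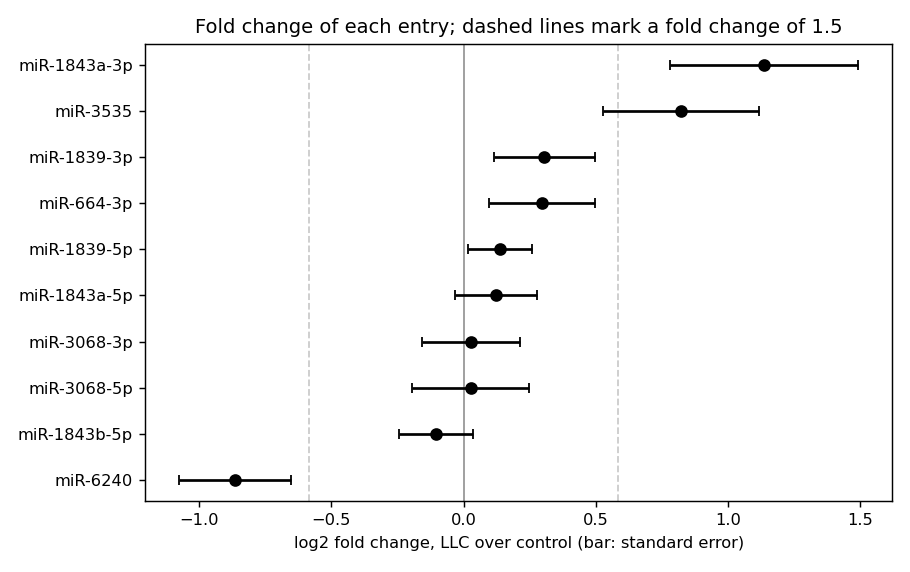
Log2 fold change of each entry, LLC over control, from edgeR with its standard error (bars), and dashed lines at a fold change of 1.5. miR-1843a-3p at 1.14 and miR-3535 at 0.82 lie above the upper line, miR-6240 at -0.86 below the lower one, and the other 7 between them.

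If both arms of a hairpin were released from 1 parent RNA and kept alike, their ratio within a library would not change, and such a ratio needs no scaling between libraries. For miR-1843a, the counts of the 5p arm per count of the 3p arm were 12.9, 16.7, 17.8 and 20.1 in C1 to C4 and 11.7, 10.5, 15.7, 3.00 and 7.96 in L1, L2, L3, L5 and L6. In 4 of the 5 LLC libraries the ratio was below every control library, L3 being the exception. The mean log2 ratio was 4.02 ± 0.255 (SD, n = 4) in control and 3.08 ± 0.908 (SD, n = 5) in LLC muscle, a difference of -0.94. An exact permutation test gave p = 0.0476, and 0.143 after adjustment over the 3 hairpins tested, so the difference did not pass. Only LLC libraries took the 3p arm over the expression limit, and that selection favours a lower ratio in LLC muscle. The ratio and its p-values are therefore a description. Without L5 it was -0.57.

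For miR-1839 the ratio was 3.31, 3.41, 3.04 and 3.59 in the control libraries and 2.57, 3.53, 4.09, 1.92 and 3.57 in the LLC libraries. The groups overlapped and the mean log2 ratio differed by -0.14 (exact permutation p = 0.619, adjusted p = 0.921), turning to 0.03 without L5. For miR-3068, where the 3p arm was the more abundant, the ratio was 0.163, 0.289, 0.274 and 0.297 in the control and 0.264, 0.184, 0.243, 0.443 and 0.200 in the LLC libraries. L5 was highest and C1 lowest, and the mean log2 ratio differed by 0.03 (exact permutation p = 0.921, adjusted p = 0.921). Without C1 that difference was -0.18, and without L5 -0.17. The dominant arm was thus the 5p arm for miR-1839 and miR-1843a and the 3p arm for miR-3068 in all 9 libraries.

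The other arms of the remaining hairpins were near or at the limit of detection. miR-664-5p had 6 to 17 counts in the control and 4 to 19 in the LLC libraries. miR-1843b-3p, the arm that would mark the Scarna3a locus, had 0 counts in all 9 libraries, which allows up to 3 counts or 0.383 to 0.601 CPM before TMM per library. The counts on miR-1843b-5p were 192 to 315 in the control and 145 to 339 in the LLC libraries, so this entry had no detected partner.

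The counts of miR-1843b-5p per count of miR-1843a-5p, the entries that share 20 bases, were 0.733, 0.755, 0.725 and 0.797 in C1 to C4 and 0.596, 0.701, 0.633, 0.671 and 0.636 in L1, L2, L3, L5 and L6. The groups did not overlap, with means of 0.752 ± 0.0322 (SD, n = 4) and 0.647 ± 0.0400 (SD, n = 5). This ratio was singled out after its values were seen and was not tested. A read that lies within the shared run aligns to both entries alike, and how such reads entered the counts cannot be told from the tables.

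**Figure D4:**
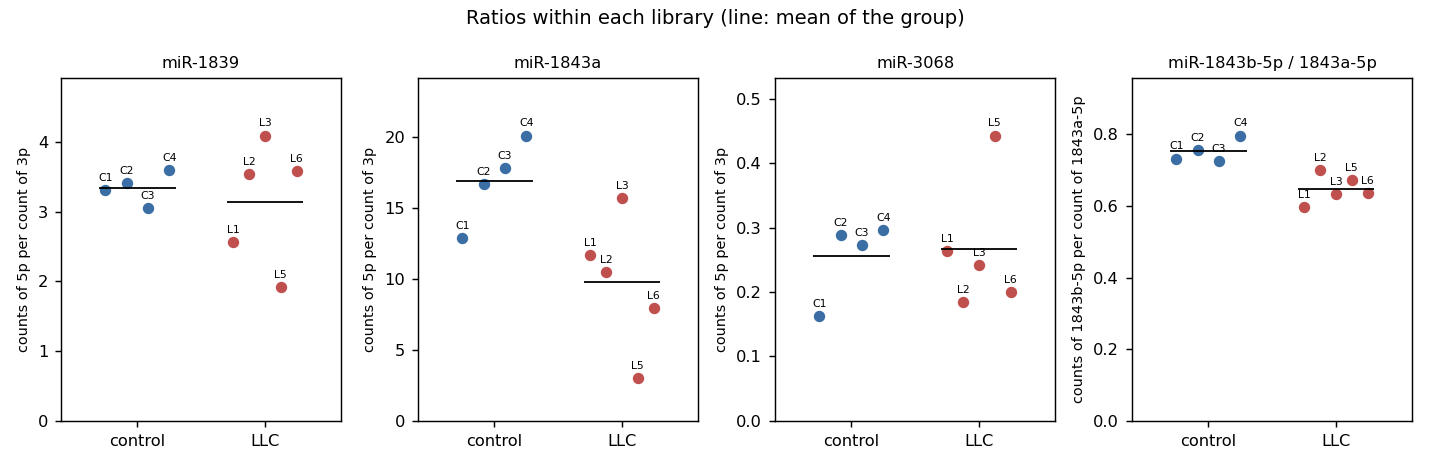
Ratio of 5p to 3p counts for miR-1839, miR-1843a and miR-3068, and of miR-1843b-5p to miR-1843a-5p counts, in each control (blue) and LLC (red) library, with the group mean (line) and axes from 0. Only the last ratio has no overlap (0.725 to 0.797 in control, 0.596 to 0.701 in LLC libraries), and L5 is lowest for miR-1839 and miR-1843a and highest for miR-3068.

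Whether the entries moved together across libraries, as fragments of 1 common pool would, was examined in log2 CPM after each group's mean had been subtracted. No direction was common to all of them. Over the 45 pairs of entries the median Pearson r was -0.09, with 20 pairs positive (44.4%), against a median of -0.00 and 50.0% positive over the 46056 pairs of all expressed entries. Among the 45 pairs, 10 had r above 0.5 and 11 had r below -0.5. In 5 pairs the exact permutation p was at most 0.05, and 2 pairs passed by Pearson r after adjustment over the 45 (exact permutation test, adjusted p = 0.0469 for both). Scaling to a common total ties the values of a library together. With library totals alone the median was -0.04 over the 45 pairs and 0.41 over all pairs, so the background depended on the scaling. In the TMM values the median over the 45 pairs was 0.04 without L5, -0.31 without C2 and -0.25 without L2, and the cause was not tested.

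The closest pair was miR-1843a-5p and miR-1843b-5p, with r = 0.97 (exact permutation p = 0.00208) and Spearman rho = 1 (exact permutation p = 0.000347) over 9 libraries. Without L1 and L5, the libraries farthest from the median, r was 0.90. These are the entries with the 20-base run in common, so part of their counts may be the same reads, and that share was not measured. For each of the 2 the other was the most alike of all 303 expressed entries.

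The other pair to pass was opposed. miR-3068-3p and miR-3535 had r = -0.89 (exact permutation p = 0.00139) and r = -0.72 without C3 and L5. The rank correlation of this pair, rho = -0.88 (exact permutation p = 0.00660), did not pass after adjustment over the 45 pairs (adjusted p = 0.102 by the exact permutation test). miR-1839-3p and miR-3068-3p were also opposed, with r = -0.83 (exact permutation p = 0.00347, not passing after adjustment) and -0.46 without L1 and L5. miR-664-3p and miR-3535 varied together across libraries, with r = 0.82 (exact permutation p = 0.0153, not passing after adjustment) and 0.84 without L2 and L5. With all 9 libraries, miR-1839-3p, miR-664-3p, miR-3535 and miR-1843a-3p were positive with each other and negative with miR-3068-3p, miR-6240, miR-1843a-5p and miR-1843b-5p in all 16 pairs between these sets. This arrangement was read from the values, was not tested and rested on L5: without it, 8 of the 16 pairs between the sets were positive, and 2 of the 6 pairs within each set were negative.

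No relation was detected between arms of the same hairpin. The r was -0.36 for the arms of miR-1839 (exact permutation p = 0.401), -0.31 for those of miR-1843a (exact permutation p = 0.584) and -0.24 for those of miR-3068 (exact permutation p = 0.534). Among the 303 other expressed entries, the opposite arm ranked 199 to 244 in likeness. Without L5 these values were 0.12, 0.54 and 0.08, so the negative sign rested on that library in each case.

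**Figure D5:**
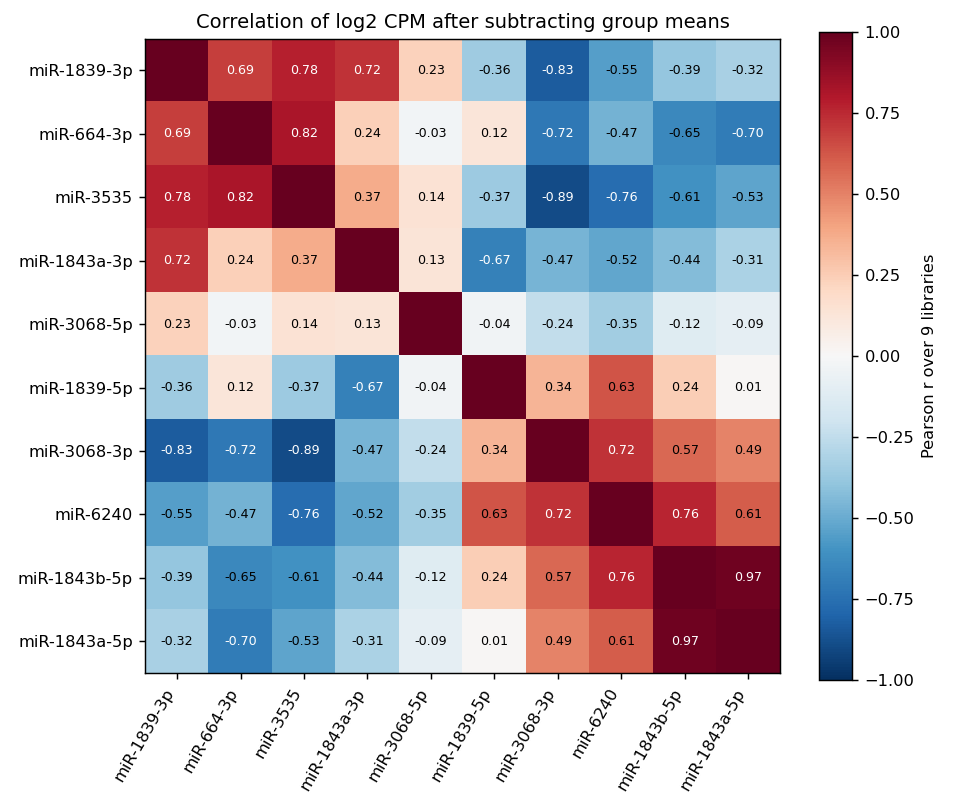
Pearson r of log2 CPM between the entries over 9 libraries after subtracting group means, from blue (-1) to red (1), with the entries ordered by eye so that alike ones are adjacent. With all 9 libraries a positive set (upper left) and a second positive set (lower right) are opposed to each other, but without L5 8 of the 16 pairs between them are positive; miR-3068-5p has r between -0.35 and 0.23 with all others.

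L5 was the outermost LLC library for most entries. Relative to the control mean it deviated by 2.07 on the log2 scale for miR-1843a-3p, 1.51 for miR-3535, 0.78 for miR-1839-3p and 0.73 for miR-664-3p. In the other direction it deviated by -1.66 for miR-6240, -0.53 for miR-3068-3p and -0.46 for miR-1843b-5p. For miR-1839-5p it was at the control mean (-0.00547). Thus a single library moved entries of different parents in both directions, and entries of the same parent (the arms of miR-1843a at 2.07 and -0.30) apart.

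For each entry the miRNA outside the set with the most alike pattern was noted as a description, over 9 libraries. Within a library all entries share its depth and scaling. The highest r were 0.98 for miR-664-3p with miR-100-5p, 0.96 for miR-3535 with miR-99b-5p, 0.96 for miR-1843a-5p with miR-378a-3p and 0.95 for miR-3068-3p with miR-22-3p. miR-1843b-5p was closest to miR-425-5p (0.93), miR-1839-3p to miR-328-3p (0.93), miR-1843a-3p to miR-350-3p (0.92), miR-6240 to miR-487b-3p (0.86), miR-1839-5p to miR-24-2-5p (0.82) and miR-3068-5p to let-7c-5p (0.71). Except for miR-1843a-5p and miR-1843b-5p, the most alike entry of the set ranked 7 to 48 among the 303 others, behind miRNAs outside the set.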

How the data were processed

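Small RNA of the tibialis anterior of 4 control and 5 LLC mice was read as single-end 50-base libraries. The authors aligned the reads to miRBase mature miRNAs using Bowtie, allowing no seed mismatch and reporting all equally best alignments, and deposited 1 table of counts per library. These are raw whole numbers, and trimming and mapping were not repeated. The role of HTSeq, FastQC and DESeq2, which the submitters' processing notes also name, is not given per table. The LLC library numbered 4 was not analysed here.

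Entries that exceeded 32 counts in any library (304 of 1915) were kept. edgeR 4.0.16 under R 4.3.3 gave the main test (quasi-likelihood F test on TMM-scaled counts, group as the only term, Benjamini-Hochberg adjustment over the 304). An entry was called when its adjusted p was no higher than 0.05 and its fold change no lower than 1.5. CPM are TMM-normalized unless stated. Single values were compared by exact permutation tests over the 126 ways to divide 9 libraries into 4 and 5, two-sided. Correlations used log2 CPM (prior count 2) with group means subtracted, and exact permutations within groups. Total counts per library were 4992339 to 7833161, and a count of 0 allows up to 3 counts (0.383 to 0.601 CPM before TMM); such limits cover counting error only. The tests were checked on made counts with known changes. Alternatives were RLE factors, library totals alone, DESeq2 1.42.0, limma 3.58.1 with voom, other filters, other prior counts, a replicate block, and leaving libraries out. The control and LLC mice that share a number are different animals, and the deviations of the same-numbered pairs 1 to 3 correlated at -0.23, -0.09 and -0.25, so the numbers were not read as pairs.

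The entries, the marker list and the rule for named miRNAs were chosen with earlier results of these data known. Named were the 10 entries, the other arms of their hairpins, entries over snoRNA or scaRNA genes, and for each entry the most alike of the other miRNAs. Hairpins, small RNA genes and hosts came from GENCODE vM21 (GRCm38), and sequences from RefSeq (GRCm38.p6) and the GENCODE transcripts. Figures were drawn in Python 3.11.15 with matplotlib 3.10.9.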

Additional observations from a re-analysis of the deposited data

Results flagged for a closer look

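In the control group, the log2 ratio of 5p to 3p counts of miR-3068 was -2.60 in C1, against -1.85 to -1.73 in the other 3 control libraries, a gap of 0.865 of the group's range where Dixon's critical value for 4 samples is 0.829. By this rule C1 was flagged, on 33 counts of the 5p arm. It was the only flag among 26 groups examined. Chance flags about 1 in 20, so this is no more than chance would give.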

How the results depend on the processing

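miR-6240 stayed lower and miR-1843a-3p, miR-3535, miR-1839-3p and miR-664-3p higher in the LLC group, and miR-1843b-5p lower, under all 18 alternatives to their fit. The number of miRNAs called, 0 in the reported fit, was 7 with DESeq2, 22 with no filter, 1 with LLC 1 and LLC 5 left out together, and 0 to 8 when each library was left out in turn (1 without LLC 1, 8 without LLC 3). With library totals alone the median over all 304 entries moved by -0.14 (log2), and the log2 fold changes of miR-1839-5p (-0.00128), miR-1843a-5p (-0.0173), miR-3068-3p (-0.10) and miR-3068-5p (-0.13) turned negative. The value of miR-3068-3p ranged from -0.0570 to 0.14 and that of miR-3068-5p from -0.0823 to 0.21 over leaving out each library, and that of miR-3068-5p was -0.00588 without LLC 1 and LLC 5. The arm ratio of miR-1839 was 0.16 and that of miR-3068 was -0.26 without LLC 1 and LLC 5. Over leaving out each library, the arm ratios ranged from -0.25 to 0.0266 (miR-1839), from -1.16 to -0.57 (miR-1843a) and from -0.18 to 0.14 (miR-3068). The median correlation was 0.00914 with group means not subtracted, 0.0248 without LLC 1 and LLC 5, and -0.31 to 0.0373 over leaving out each library, lowest without control 2 and highest without LLC 5. It was -0.04 with library totals alone, where the median over all pairs of expressed entries was 0.41. The cause was not tested. With a replicate block on numbers 1 to 3, the fit called 0 miRNAs, 2 entries (miR-3535 and miR-6240) passed the unadjusted threshold, and the arm ratios were 0.0369 (miR-1839), -0.0405 (miR-3068) and -0.32 (miR-1843a). The same libraries with no block, an alternative chosen after seeing the data, also gave 0 called and the same 2 entries. Depth limits miR-1843a-3p, miR-3535 and miR-3068-5p most, with 12 to 72 counts a library.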

Other observations

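Below the expression filter, 14 further entries lay on hairpins over snoRNA or scaRNA genes, 11 with a count and 3 with none. Their summed counts were 52 to 58 in controls and 56 to 83 with LLC tumours, in libraries of unlike depth. In CPM before TMM the sums were 8.19 to 10.4 in controls and 8.42 to 13.0 with LLC tumours, with L1 and L5 inside the control range. Of the 11 with a count, 6 had higher and 5 lower fitted values in LLC muscle in the edgeR fit with no filter. The median log2 fold change of the 11 was 0.06, against 0.03 over all entries with a count. Both arms of miR-3084, whose hairpin gene Mir3084-1 overlaps the snoRNA gene Gm23658, had higher fitted values in the LLC group. miR-3084-5p had 10, 6, 4 and 4 counts in C1 to C4 and 15, 17, 19, 11 and 18 in L1, L2, L3, L5 and L6, so the groups did not overlap in raw counts. How many other entries with such low counts had this gap was not examined. miR-3084-3p had 12, 11, 18 and 11 counts in the control libraries and 30, 28, 18, 32 and 16 in the LLC libraries, with overlap. Both arms were singled out after their values were seen. In the edgeR fit with no filter, miR-3084-5p differed by 1.40 on the log2 scale (adjusted p = 0.0225) and miR-3084-3p by 0.95 (adjusted p = 0.0841). miR-3084-5p was the only 1 of the 11 called in that fit, which called 2.36% of 932 entries. These counts are low and no other filter run here tested miR-3084-5p.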
